A study of Homo sapiens with 9 samples.

Results

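The regions described here were called as open chromatin in both hypoxia lists of T47D cells, with the hairpin against ZHX2 and with the control hairpin, and in no region of the normoxia list. They were chosen by presence or absence in the deposited lists: the 3 lists were merged wherever regions shared at least 1 bp, and a merged region was kept when it held a region of each hypoxia list and none of the normoxia list. This gave 734 of 97804 merged regions, or 0.75% of them. The same 734 were 1.27% of the 57834 merged regions called in both hypoxia lists, 26.8% of the 2739 called in hypoxia with shZHX2 and not in normoxia, and 14.7% of the 4983 called in hypoxia with shCtrl and not in normoxia. Presence, fold enrichment and p-values come from the calls that chose the regions, so they are given as a description and carry no test.

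ATAC-seq, which reads open chromatin by where a transposase can insert adapters, was run on 50000 nuclei per sample of T47D, an oestrogen receptor positive luminal breast cancer line. Per the labels, 3 samples were T47D with shZHX2 in hypoxia, 3 were T47D with shCtrl in hypoxia and 3 were T47D with shCtrl in normoxia. All 9 cultures had gone through lentiviral infection and selection with hygromycin or puromycin, depending on the vector, and grew in RPMI medium. The sources used here do not give the oxygen level, the length of hypoxia or the number of hairpins behind the shZHX2 label, and no shZHX2 sample in normoxia is among the groups, so an effect of the hairpin that needs hypoxia cannot be told apart from one present at any oxygen level.

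Each group has 1 deposited list, with 62779 regions for hypoxia with shZHX2, 77451 for hypoxia with shCtrl and 90962 for normoxia. The lists hold no values per sample, the number of reads behind each is unknown, and so no spread between replicates and no test between conditions could be computed. Wilson 95% intervals beside shares cover counting error over regions only, and regions are not replicates of a condition. The count of 734 depends on where the normoxia list ends: when the lists were cut by −log10 p to the length of the shortest, 2742 regions met the rule and 326 of the 734 remained among them. The luminal label was checked only through region counts: 31 of 32 luminal and oestrogen receptor genes had a region of both hypoxia lists within 50 kb of an end, against 10 of 14 genes of blood cells, 11 of 12 of stroma and endothelium, 8 of 10 of liver and neurons, 18 of 22 housekeeping genes and 16663 of all 20050 protein-coding genes. Such nearby regions do not measure expression, and with most genes having one they say little of cell type.

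In low oxygen, hydroxylases of the EGLN family lose activity, HIF α subunits escape degradation by the VHL ubiquitin ligase, pair with ARNT or ARNT2 and bind hypoxia response elements near genes of glycolysis, angiogenesis and matrix remodelling. ZHX2 is a zinc finger and homeobox protein known as a substrate of VHL in kidney cancer. Open chromatin marks promoters, which tend to be rich in CpG and open in most cell types, and distal enhancers, which vary more between cell states. Regions in both hypoxia lists are those called in low oxygen both with shZHX2 and with shCtrl.

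Of the 734 regions, 10 touched a promoter window of the RefSeq table for GRCh38.p14, which runs from 250 bases before to 50 bases after a start site, and they touched 13 such windows. On the chromosomes with windows this was 10 of 695 members (1.44%), against 2.05% of regions called only in hypoxia with shZHX2, 0.905% of those called only in hypoxia with shCtrl and 21.8% of regions of all 3 lists. The 5 windows below belong to protein-coding genes and show where the called region begins inside a promoter. Each is printed 5′ to 3′ on the gene's strand, and capitals mark the bases that lie inside the region called in hypoxia. RGS4 is a GTPase activator that ends G protein signalling, CFAP65 is a protein of cilia and flagella, ADD3 is an adducin of the membrane skeleton, NTM is the neuronal adhesion protein neurotrimin and CABP7 is a calcium-binding protein.
RGS4, chr1:163069111-163069410, plus strand: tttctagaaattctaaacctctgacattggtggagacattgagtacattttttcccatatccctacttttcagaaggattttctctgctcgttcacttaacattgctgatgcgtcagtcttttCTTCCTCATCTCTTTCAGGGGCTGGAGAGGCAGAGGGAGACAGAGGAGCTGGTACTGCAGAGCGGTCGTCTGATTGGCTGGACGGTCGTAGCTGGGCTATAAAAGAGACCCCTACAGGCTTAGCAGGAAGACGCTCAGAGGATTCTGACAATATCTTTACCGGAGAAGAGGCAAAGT
CFAP65, chr2:219041467-219041766, minus strand: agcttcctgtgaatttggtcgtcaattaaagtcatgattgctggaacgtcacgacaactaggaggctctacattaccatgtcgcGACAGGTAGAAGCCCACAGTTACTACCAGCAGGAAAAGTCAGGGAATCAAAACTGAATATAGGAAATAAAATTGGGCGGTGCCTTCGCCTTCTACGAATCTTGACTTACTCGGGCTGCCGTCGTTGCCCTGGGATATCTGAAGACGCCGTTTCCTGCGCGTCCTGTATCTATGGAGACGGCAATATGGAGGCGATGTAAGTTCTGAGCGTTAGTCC
ADD3, chr10:110005697-110005996, plus strand: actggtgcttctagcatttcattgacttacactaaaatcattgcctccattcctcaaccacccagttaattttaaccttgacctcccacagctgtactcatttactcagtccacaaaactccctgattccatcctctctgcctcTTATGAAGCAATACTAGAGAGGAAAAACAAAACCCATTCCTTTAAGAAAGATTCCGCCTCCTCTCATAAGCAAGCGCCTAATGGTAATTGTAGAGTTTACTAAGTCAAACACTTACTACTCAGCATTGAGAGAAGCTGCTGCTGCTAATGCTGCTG
NTM, chr11:131370365-131370664, plus strand: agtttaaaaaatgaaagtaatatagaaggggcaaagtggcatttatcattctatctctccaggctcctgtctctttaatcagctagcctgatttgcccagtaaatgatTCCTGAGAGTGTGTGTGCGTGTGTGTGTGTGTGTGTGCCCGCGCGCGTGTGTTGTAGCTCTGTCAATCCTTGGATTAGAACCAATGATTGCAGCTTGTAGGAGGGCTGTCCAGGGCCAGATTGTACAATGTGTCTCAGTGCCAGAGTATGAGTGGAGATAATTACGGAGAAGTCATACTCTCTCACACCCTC
CABP7, chr22:29719753-29720052, plus strand: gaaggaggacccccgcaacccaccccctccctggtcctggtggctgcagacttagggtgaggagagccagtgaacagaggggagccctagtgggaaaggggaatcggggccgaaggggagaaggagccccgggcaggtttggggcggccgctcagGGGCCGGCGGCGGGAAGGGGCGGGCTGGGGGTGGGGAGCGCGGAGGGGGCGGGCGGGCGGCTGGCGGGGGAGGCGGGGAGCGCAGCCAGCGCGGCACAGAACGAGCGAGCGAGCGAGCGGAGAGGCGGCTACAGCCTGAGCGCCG

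These promoters were of unlike composition. The CABP7 window had 74.7% G and C and 28 CpG dinucleotides, and the neighbouring window of the divergent transcript CABP7-DT had 81.3% and 50. The windows of ADD3 and NTM had 42% and 46% G and C, with 2 and 6 CpG, and the window of CFAP65 printed above had 48.7% with 18. Over the 13 windows the median was 47% G and C and 5 CpG, against 66% and 26 over the 17620 windows touched by regions of all 3 lists and 58.7% and 14 over all 35116 windows. The 13 windows share sources, since RGS4 and CFAP65 gave a pair of overlapping windows each and a single region touched both CABP7 windows.

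Short motifs, 22 in all, were counted in the windows on both strands, and some of them are given here. The core of the hypoxia response element, ACGTG, stood in 2 of 13 windows (15.4%), those of the non-coding RNAs LOC105374837 and LOC105369367, against 25.8% of windows touched by regions of all 3 lists and 21.4% of all windows. This core also lies inside the E-box CACGTG, which stood in none of the 13. The form GCGTG stood in the NTM window alone (7.69%), against 51.3% and 36.5%. The SP1 box GGGCGG stood in 4 windows (30.8%), those of CFAP65 and of the CABP7 pair, against 70.3% and 45%. The TEAD core GGAATG stood in 4 windows (30.8%), those of ADD3, ATP13A5 and the same pair of non-coding RNAs, against 11% and 14%. The ETS core CCGGAA and the AP-1 site TGANTCA stood in none of the 13, against 27.9% and 4.37% of windows touched by regions of all 3 lists. The 13 windows had a lower median share of G and C than the windows compared, as given above, and the part of composition in these contrasts was not tested. A match in so few windows is a description and not a bound site, and the sequence of the other members was not read here because no genome was used.

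The 10 regions at these promoters had low to middling strength. Strength is given by the authors' fold enrichment over the local background and by their −log10 p for each region, and every region of the lists has a −log10 p above 10. The RGS4 region, chr1:163069234-163069609, had a fold of 4.35 and a −log10 p of 27.4 in hypoxia with shZHX2, and a fold of 4.48 and a −log10 p of 36.7 in hypoxia with shCtrl. It was the strongest of the 10 in the shZHX2 list by −log10 p. The region over the start of CFAP65 had folds of 3.24 with shZHX2 and 2.88 with shCtrl, that of ADD3 had 3.09 and 2.52, that of NTM had 2.86 and 2.93, and that of CABP7 had 2.52 and 2.31. The region over the start of ATP13A5, a P-type transport ATPase, was among the weakest of all members, with a −log10 p of 11.7 with shZHX2 and 10.3 with shCtrl. Regions also covered start sites of MGAT4C, a glycosyltransferase family member, and of PCGEM1, a non-coding RNA known from prostate cancer.

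As a class, the 734 regions were weak within both lists. In hypoxia with shZHX2 their fold enrichment ran from 1.45 to 9.87 with a median of 3.43, against 4.79 for all regions of that list. In hypoxia with shCtrl it ran from 1.51 to 6.63 with a median of 3.13, against 4.26 for all regions of that list. Their median −log10 p was 18.2 in the shZHX2 list, where all regions had 46.2, and 18.3 in the shCtrl list, where all regions had 44.2. Below the lower quartile of −log10 p in both lists lay 410 regions (55.9%), and above the median of both lay 4. The regions were narrow, with a median of 275 bp in the shZHX2 list and 269.5 bp in the shCtrl list, against 474 bp and 463 bp over those lists.

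**Figure D1:**
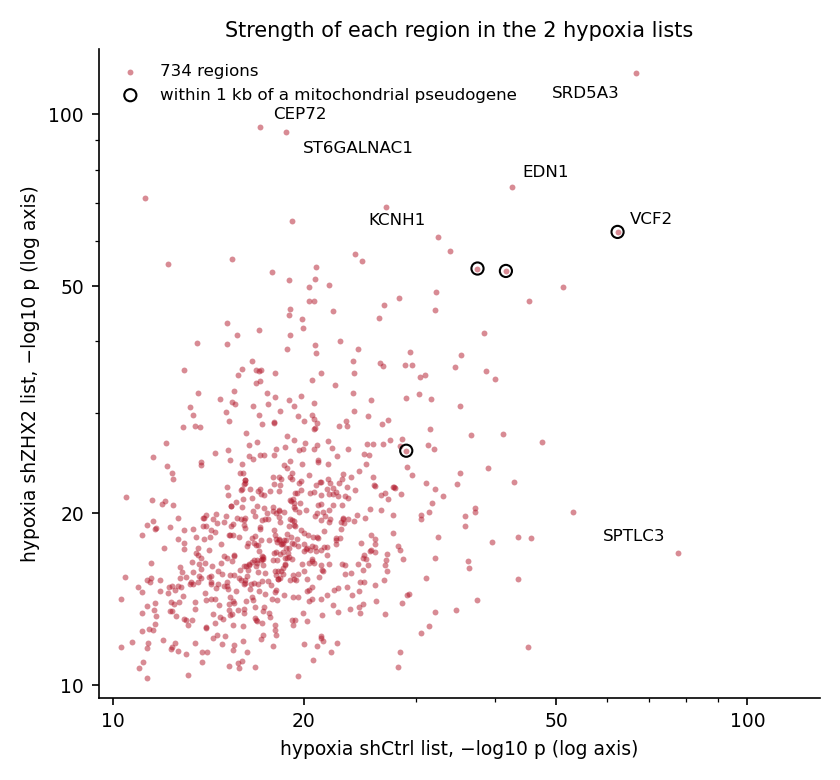
Each point is 1 of the 734 regions, with its −log10 p in the hypoxia shCtrl list on the x axis and in the hypoxia shZHX2 list on the y axis, both log axes; named points carry the nearest protein-coding gene. Most points lie near the median of 18.2 in shZHX2 and 18.3 in shCtrl, SRD5A3 stands highest in shZHX2 and SPTLC3 farthest right in shCtrl, and circled points lie within 1 kb of a nuclear copy of a mitochondrial gene.

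The rule required the regions of the 2 hypoxia lists to overlap, and the extent of that overlap varied. Each of the 734 consisted of exactly 1 region of each list, the bases called in both had a median of 226 bp, and these made up a median 76.9% of the merged width (quartiles 64.2 and 88.1%, lowest 10.3%). Centres lay a median 22 bp apart, more than 100 bp apart in 49 regions, and 6 regions had the same start and end in both lists. The Spearman coefficient across the 734 regions was 0.336 for −log10 p and 0.559 for fold, against 0.902 and 0.865 across the 57100 regions of all 3 lists; these describe regions of the same libraries, and the 734 span a narrow range of strength. By within-list percentile of −log10 p, 53 regions stood more than 25 points higher in the shZHX2 list than in the shCtrl list, and 25 stood more than 25 points lower.

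Ordered by the lower of their within-list percentiles, the 245 strongest members had 19 at a gene end (7.76%, 5.02 to 11.8%), the middle 244 had 5 (2.05%, 0.878 to 4.71%) and the 245 weakest had 10 (4.08%, 2.23 to 7.35%). By shCtrl −log10 p the share of members was 3.25% (1.39 to 7.37%) at 10 to 15 and 8.47% (3.67 to 18.4%) at 30 to 80. Among regions of all 3 lists it was 6.19% and 10.7% in these bins. Regions called only in hypoxia with shCtrl showed no such rise, with 4.49% and 2.67% (1.15 to 6.11%). Nor did those called only in hypoxia with shZHX2, with 2.84% and 3.05% by shZHX2 −log10 p. The region 17891 bp upstream of SRD5A3, a steroid reductase family enzyme that makes dolichol for protein glycosylation, had the highest −log10 p of any member in the shZHX2 list. It had a fold of 9.87 and a −log10 p of 118 with shZHX2, and a fold of 6.17 and a −log10 p of 66.9 with shCtrl. A second, weaker member lay 6082 bp from it, with folds of 3.75 with shZHX2 and 3.46 with shCtrl, and no other called region stood between them. The other members above the median of both lists were nearest to VCF2, MYO1H and EVC2, of which MYO1H, an unconventional myosin, has its gene end more than 50 kb away and is named because it makes up the count. The EVC2 region, near a gene of hedgehog signalling at the cilium, had folds of 5.75 with shZHX2 and 4.96 with shCtrl.

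EDN1, which codes for the vasoconstrictor endothelin-1 and is a known HIF target, had a region inside the gene, 1704 bp from a start site. This region had a −log10 p that was high among members, with a low fold. Within the whole lists that −log10 p was middling, at percentile 63.5 in shZHX2 and 48.9 in shCtrl. The region's fold was 2.59 and its −log10 p 74.5 with shZHX2, and its fold was 1.94 and its −log10 p 42.6 with shCtrl. The nearest normoxia region to it began 1472 bp away. PMF1, a kinetochore protein gene, and KCNH1, a voltage-gated potassium channel gene, showed the same combination. The PMF1 region had a fold of 2.44 with a −log10 p of 57.7 in shZHX2, and 2.09 with 33.9 in shCtrl. The KCNH1 region, 1164 bp upstream of the gene, had 2.93 with 60.9 in shZHX2, and 2.26 with 32.5 in shCtrl. The lists hold no read counts behind these folds, so the local background at these regions was not tested.

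Others of the 10 strongest members with a gene end within 50 kb lay at SKAP2, PLCL1 and IQGAP1. SKAP2, an adaptor of Src family kinases, had folds of 3.27 with shZHX2 and 2.91 with shCtrl. PLCL1, a phospholipase C-like protein without catalytic activity, had 3.53 and 3.17 at a region 1189 bp upstream. IQGAP1, a scaffold that binds actin and Cdc42, had 4.78 and 3.50 at a region inside the gene.

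The 5 highest folds of members in each list were picked by that list, which by itself favours a lower fold in the other. In the shZHX2 list each came with a lower fold with shCtrl, that of SRD5A3 given above among them. ST6GALNAC1, a sialyltransferase of mucin-type glycans, had a fold of 7.50 with shZHX2 and 3.30 with shCtrl, and a −log10 p of 93.1 with shZHX2 and 18.7 with shCtrl. CEP72, a centrosomal protein, had folds of 7.19 with shZHX2 and 2.90 with shCtrl, SPINK1, a trypsin inhibitor, had 7.05 and 3.89, and PRP4K, a splicing kinase, had 6.74 and 3.34. In the shCtrl list the highest fold of a member belonged to a region 150903 bp from SPTLC3, a subunit of serine palmitoyltransferase, with 3.47 with shZHX2 and 6.63 with shCtrl. ZSCAN23, a zinc finger gene, had 3.75 with shZHX2 and 5.44 with shCtrl, and USP17L24, a deubiquitinase of a family with many near-identical copies, had 4.29 and 5.11. The others of the 5 highest in the shCtrl list, at SRD5A3 and VCF2, had higher folds with shZHX2. The VCF2 region had 6.66 with shZHX2 and 5.82 with shCtrl. Folds of the 2 lists are not normalised to each other and the calls carry no replicate error, so no difference between hairpins is claimed for these regions. The place of the USP17L24 region is uncertain, since reads can be split among the copies.

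The regions nearest to the rule's limit were weak on both sides of it. The weakest hypoxia calls of members were at VIPR2, with a −log10 p of 10.3 with shZHX2 and 11.3 with shCtrl, at ATP13A5, given above, and at TMEM119, with 14.2 with shZHX2 and 10.3 with shCtrl. Just outside, with the weakest normoxia calls among regions of all 3 lists, UNC5CL had a −log10 p of 15.3 with shZHX2, 18 with shCtrl and 10.4 in normoxia, and PIK3CG had 16.4, 19.8 and 10.4. Among regions of all 3 lists, 82 made up of 1 region per list had a normoxia −log10 p under 12, and their medians were 15.1 with shZHX2 and 15.1 with shCtrl, against 18.2 and 18.3 for the members. These genes at the edge were chosen after their values were seen.

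Absence from normoxia went with low strength in hypoxia. By decile of −log10 p in the shZHX2 list, weakest first, the share of regions of both hypoxia lists that had no normoxia region was 5.21%, 4.26%, 2.62%, 1.32% and 0.726% over the first 5 deciles, and 0 in the top 2. By decile in the shCtrl list it was 9.41%, 8.15%, 4.35%, 1.79% and 0.487%, and 0 in the top 3. Of 6241 shared regions in the top decile of the shZHX2 list and 7720 in that of the shCtrl list, none was missing from normoxia. The share called with both hairpins, among hypoxia regions without a normoxia call, was higher in each decile than in the one before over the first 5 deciles of each list. Of shZHX2 regions without a normoxia call, 21.8% in the weakest decile and 41.9% in the fifth were also called with shCtrl, and of shCtrl regions without a normoxia call, 10.1% in the weakest decile and 24.6% in the fifth were also called with shZHX2. Higher deciles held few regions and no steady order, with 23 of 46, 5 of 6 and 1 of 4 in deciles 6 to 8 of the shZHX2 list, and 7 of 37, 2 of 5 and 0 of 3 in deciles 6, 7 and 10 of the shCtrl list. Where a list ends along this scale depends on its depth, which is unknown, and the part of depth in these shares was not tested.

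**Figure D2:**
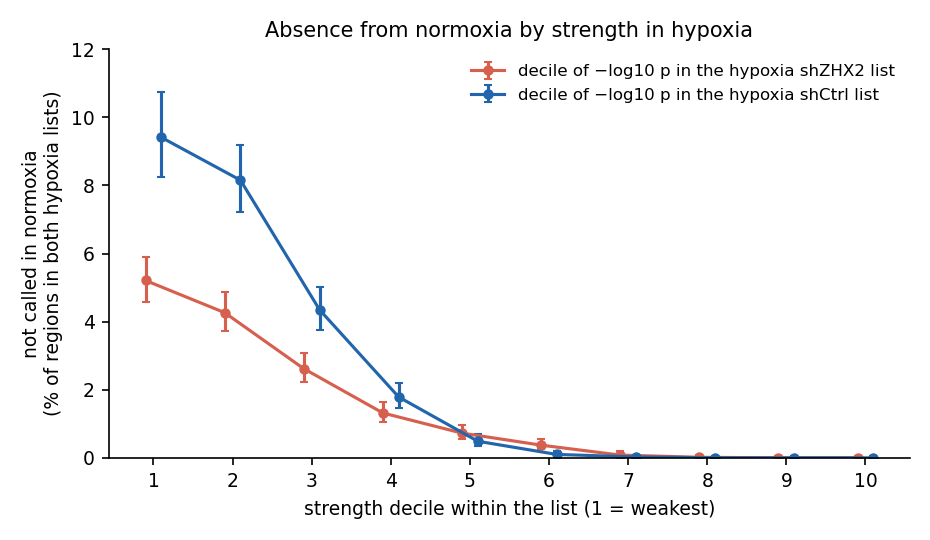
The y axis gives the share of regions called in both hypoxia lists that had no normoxia region, with Wilson 95% intervals, and the x axis the decile of −log10 p within each hypoxia list, 1 being the weakest. The share is 5.21% in the weakest shZHX2 decile and 9.41% in the weakest shCtrl decile, and both lines reach 0 at the strong end.

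The 734 regions stood close to chromatin that was open in normoxia without touching it. The nearest normoxia region lay a median 6276.5 bp away (quartiles 2430 and 17478 bp, range 369 to 234011 bp). That median was 1913 bp for the set obtained with all lists held to a −log10 p of at least 15, and 0 bp for the set from lists of equal length, measured to the normoxia list as deposited. Within 1 kb of a normoxia region lay 55 of them (7.49%, interval 5.80 to 9.63%), against 8.08% of regions called only in hypoxia with shZHX2 and 4.61% of those called only in hypoxia with shCtrl. Within 10 kb lay 442 (60.2%, 56.6 to 63.7%), against 55.7% of the shZHX2-only regions (53.5 to 57.9%) and 54.5% of the shCtrl-only regions (53.0 to 56.0%). No region of all 3 lists lay within 50 kb of 108 members (14.7%), against 19.1% and 19.7% in the same order. NTM at 677 bp, PPP1R9B at 599 bp and KCNH1 at 728 bp were among the named members nearest to a normoxia region, and DPPA3, a germ cell gene, was the farthest of those at a gene end, at 77424 bp.

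**Figure D3:**
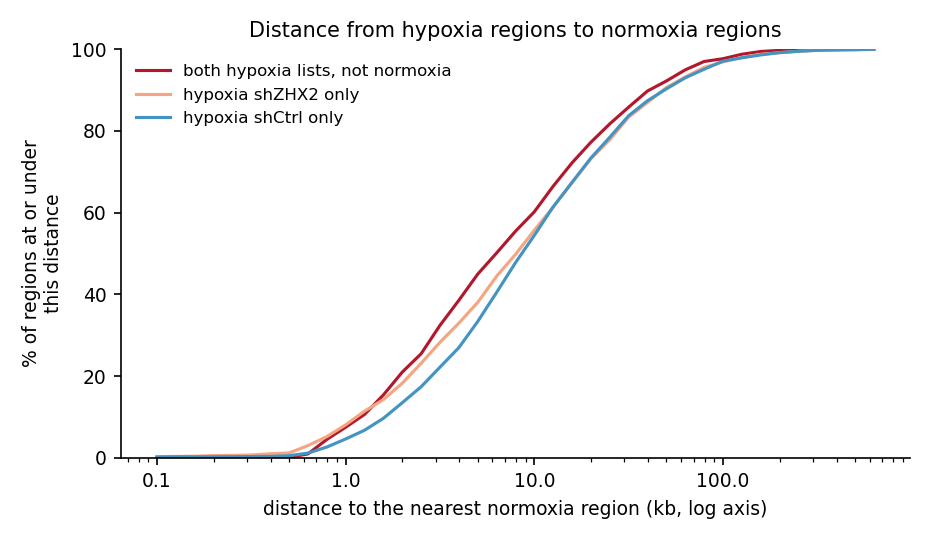
Cumulative share of regions (y axis, %) at or under each distance to the nearest normoxia region (x axis, kb, log axis), for the 734 regions of both hypoxia lists, the 2005 called only in hypoxia with shZHX2 and the 4249 called only in hypoxia with shCtrl. At 10 kb the lines stand at 60.2%, 55.7% and 54.5%.

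Few members lay at a gene end. Counted here are regions within 1 kb of either boundary of a protein-coding gene in the RefSeq gene table, which gives neither strand nor exons. This held for 34 of 734 regions (4.63%, 3.33 to 6.40%), against 2.89% of shZHX2-only regions (2.24 to 3.72%), 3.44% of shCtrl-only regions (2.93 to 4.03%) and 23.4% of regions of all 3 lists (23.1 to 23.8%). Strength and width differ between these classes. Among regions with a shCtrl −log10 p between 15 and 20 the share was 3.64% of members (2.05 to 6.40%) and 6.32% of regions of all 3 lists, and between 20 and 30 it was 5.94% (3.50 to 9.89%) and 7.0%. At matched width in the shCtrl list the intervals of members and regions of all 3 lists overlapped in each bin under 400 bp: 3.87% of members and 4.51% of regions of all 3 lists under 250 bp, 7.04% and 4.81% from there to under 300 bp, and 3.11% and 5.08% from 300 to under 400 bp. From 400 bp the share was 5.17% of 58 members (1.77 to 14.1%) and 29.3% of 43329 regions of all 3 lists (28.9 to 29.7%). Within 1 kb of a coding start site of the promoter table lay 12 of 695 members on chromosomes with such windows (1.73%), against 2.53% of shZHX2-only regions, 1.03% of shCtrl-only regions and 20.3% of regions of all 3 lists.

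**Figure D4:**
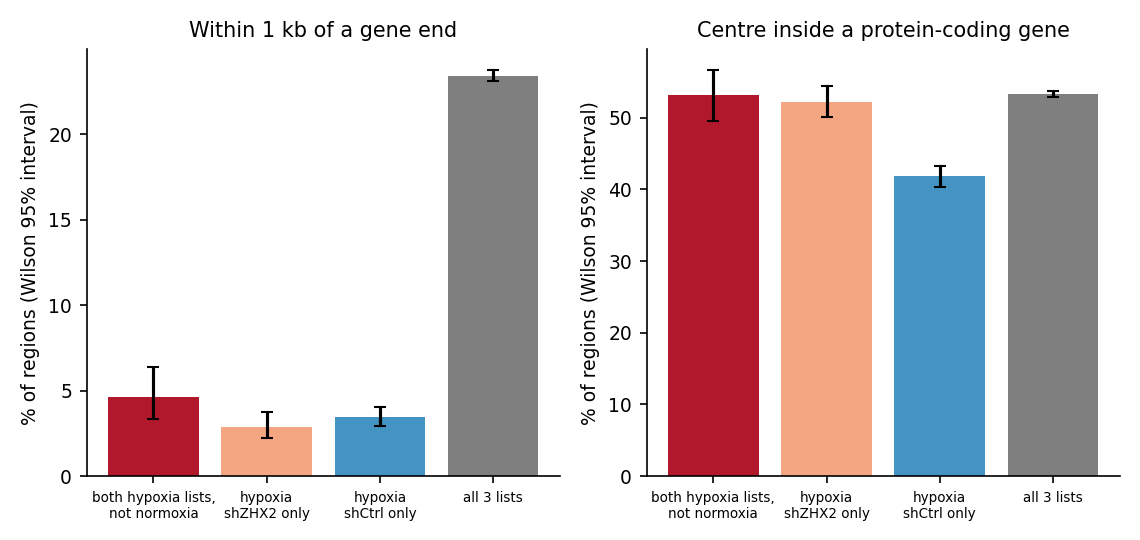
Bars give the share of regions within 1 kb of a protein-coding gene end (left) and with the centre inside a protein-coding gene (right), from 0, with Wilson 95% intervals, for the 734 regions and 3 other classes. The members stand at 4.63% and 53.1%, and regions of all 3 lists at 23.4% and 53.3%.

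The 34 gene ends belonged to 34 genes, 0.17% of the 20050 protein-coding genes. In 6 of the 34 the region lay within 1 kb of a start site of the same gene in the promoter table (RGS4, CFAP65, ATP13A5, NTM, CABP7 and PPP1R9B), in 22 the listed start sites of the gene were all farther away, and 6 have no entry there. PPP1R9B codes for spinophilin, a scaffold of protein phosphatase 1, and its region had folds of 2.03 with shZHX2 and 1.73 with shCtrl. Folds at the 34 gene ends ran from 2.03 to 5.07 with shZHX2, median 3.28, and from 1.73 to 5.11 with shCtrl, median 2.97. The highest in shZHX2 was IQCH, a protein with a calmodulin-binding motif, with 5.07 with shZHX2 and 3.85 with shCtrl, and none of the 34 lay above the median −log10 p of both lists.

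The roles of these genes were varied. The region 97 bp past the end of TRIP13, an ATPase of the spindle checkpoint, had folds of 2.82 with shZHX2 and 2.58 with shCtrl. That at an end of CRYAB, the small heat shock protein αB-crystallin, had 2.91 and 2.53. That at an end of ENPP2, which codes for autotaxin, the enzyme that makes lysophosphatidic acid, had 4.18 and 3.24. That past SOX12, a SOX transcription factor gene, had 2.06 and 1.97, and that past IFT20, a gene of intraflagellar transport, had 4.07 and 2.78. BNIP1, a SNARE of the endoplasmic reticulum, had 3.18 and 3.18, and ATAD1, an ATPase that extracts misplaced proteins from mitochondria, had 4.0 and 2.95 at a region upstream of the gene. The other genes with a member at an end were ZNF648, IBA57, MOB1A, KANSL3, USP17L24, AGGF1, CCNI2, UBLCP1, VPS37A, PSKH2, FNBP4, DPPA3, DAZAP2, COQ10A, TMEM119, LOC124903211, SLC35F4, RNF227, ZNF444 and C20orf202. Some of these regions had their centre inside another protein-coding gene: that of IFT20 in TMEM97, that of DAZAP2 in SMAGP and that of VPS37A in MTMR7.

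Members lay inside genes more often than regions called only with shCtrl. The centre fell inside a protein-coding gene in 390 of 734 (53.1%, 49.5 to 56.7%), against 52.2% of shZHX2-only regions (50 to 54.4%), 41.8% of shCtrl-only regions (40.3 to 43.3%) and 53.3% of regions of all 3 lists. At matched −log10 p in the shCtrl list the intervals of members and shCtrl-only regions did not overlap in 2 of 4 bins: 55.0% of members (49.3 to 60.5%) and 43.1% of shCtrl-only regions (40.7 to 45.5%) for 15 to 20, and 52.5% (45.9 to 59.0%) and 35.8% (32.7 to 39.0%) for 20 to 30. They overlapped for 10 to 15, with 54.5% (46.7 to 62.2%) and 45.1% (42.5 to 47.6%), and for 30 to 80, with 42.4% (30.6 to 55.1%) and 33.7% (27.3 to 40.7%). By width, members of 200 to 399 bp in the shCtrl list gave 53.2 to 58.3%, whereas 16 of the 58 members of 400 bp or more (27.6%, 17.8 to 40.2%) had the centre in a gene, against 41.3% of shCtrl-only regions of that width (36.0 to 46.9%). Both classes come from the same 3 lists, and no test across samples was possible.

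**Figure D5:**
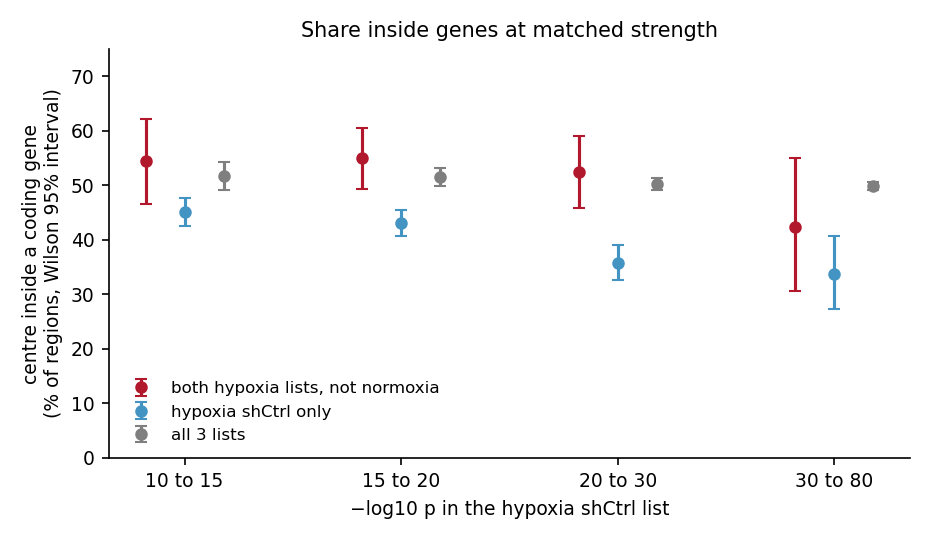
Share of regions with the centre inside a protein-coding gene (y axis, %, Wilson 95% intervals) by −log10 p in the hypoxia shCtrl list (x axis), for the 734 regions, regions called only in hypoxia with shCtrl and regions of all 3 lists. The members lie at 54.5%, 55.0%, 52.5% and 42.4% from left to right, above the shCtrl-only regions in each bin.

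Outside every gene of the table lay 253 members (34.5%), against 33.9% of shZHX2-only regions, 43.2% of shCtrl-only regions and 34.2% of regions of all 3 lists. No protein-coding gene end lay within 50 kb of 261 members (35.6%, 32.2 to 39.1%). This share was 44.8% for shZHX2-only regions, 44.6% for shCtrl-only regions and 26.0% for regions of all 3 lists. Including non-coding genes, 92 members lay within 1 kb of a gene end. Of these, 33 were nearest to a protein-coding gene, 27 to an lncRNA, 22 to a pseudogene and 4 to a transcribed pseudogene. A further 4 were nearest to a V segment, 1 to a C region and 1 to a V segment pseudogene. A pseudogene was overlapped by 3.54% of members (2.43 to 5.14%). This was 1.55% for shZHX2-only regions, 2.92% for shCtrl-only regions and 2.94% for regions of all 3 lists. No member lay within 1 kb of a miRNA hairpin of the RefSeq table. The 92 and the miRNA count are not set beside other classes here. Among chromosomes 1 to 22, the share of regions of both hypoxia lists that were members was highest on chromosome 4, with 36 of 2000 (1.80%, 1.30 to 2.48%), and 1.73% on chromosomes 5 and 7, and it was lowest on chromosome 19, with 14 of 2640 (0.530%, 0.316 to 0.888%).

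The members were spread over many genes. Within 50 kb of a protein-coding gene end lay 473 of the 734 (64.4%), assigned to 459 genes, 2.29% of the 20050. Of these genes 445 had 1 member, 14 had 2 and none had more. Genes with 2 include SRD5A3, ETS1, RBFOX3, NTM, NRXN2, MED13L, a subunit of the Mediator kinase module, PDE2A, a phosphodiesterase, OCM, which codes for the calcium-binding protein oncomodulin, and UBLCP1, a phosphatase of the proteasome. In 14 places members lay within 25 kb of each other, the closest being 1115 bp apart in the T cell receptor beta locus, 1227 bp apart in ETS1 and 1780 bp apart in RBFOX3.

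The genes of oxygen sensing and hypoxia response were examined as lists. Of 45 HIF target genes, a list without EDN1, 1 had a member within 50 kb (2.22%, against 2.29% of all protein-coding genes), and 43 had a region of both hypoxia lists, as did 16663 of the 20050 protein-coding genes. The gene was P4HA1, a collagen prolyl hydroxylase subunit, with a region 24948 bp downstream. That region was the widest of the 734 at 1592 bp, with folds of 3.12 with shZHX2 and 2.77 with shCtrl. Of 13 oxygen sensing and ZHX genes, 2 had a member (15.4%, against 2.29% of all protein-coding genes). In a list this short, 2 genes do not set it apart. A region called with shCtrl in hypoxia and not in normoxia, members included, was near 3 of the 13, against 2459 of all 20050. ARNT2, a dimer partner of HIF α subunits, had its member 2739 bp from the gene, with folds of 3.67 with shZHX2 and 3.26 with shCtrl. EGLN2, a HIF prolyl hydroxylase, had a region inside the gene, with 2.45 and 2.16. No member lay near any of 27 glycolysis and pyruvate genes, of which 26 had a region of both hypoxia lists. At the 2.29% of all protein-coding genes, a list of 27 can hold none, so this is not a result about these genes.

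Lists of other pathways gave single genes. This was 3.1 to 5.3% of each list below, against 2.29% of all protein-coding genes. In lists this short, 1 gene does not set a list apart. TWIST1, a factor of epithelial-mesenchymal transition, was 1 of 30 mesenchymal and invasion genes, with a region at 4404 bp and folds of 3.19 with shZHX2 and 2.71 with shCtrl. IL6, the inflammatory cytokine, was 1 of 20 NF-kB targets, with a region inside the gene 1368 bp from its start site and folds of 2.44 and 2.32. ETS1 was 1 of 19 ETS and RUNX factors and held 2 members inside the gene, with folds of 2.91 and 3.70 with shZHX2 and 2.85 and 3.92 with shCtrl. TRPS1, a GATA-type repressor of luminal cells, was 1 of 32 luminal genes, with folds of 2.52 and 2.15. TOP2A, the DNA topoisomerase of dividing cells, was 1 of 25 cell cycle genes, with 3.44 with shZHX2 and 4.0 with shCtrl.

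Of 24 ion channel and neuronal genes, 4 had a member (16.7%, against 2.29% of all protein-coding genes). The list also stood high for all regions called with shCtrl in hypoxia and not in normoxia, members included. Such a region was near 11 of the 24, against 2459 of all 20050, so the high share was not particular to members. CAMK2A, a calcium-calmodulin kinase, had folds of 3.09 with shZHX2 and 2.63 with shCtrl. The others were KCNH1, given above, NRXN2, a neurexin, with 2 members inside the gene, and TRPM8, the cold-sensing channel. The TRPM8 region lay 292 bp from a start site inside the gene and had folds of 3.56 with shZHX2 and 3.31 with shCtrl. Of 10 liver and neuron markers 1 had a member (10%), which was RBFOX3, a neuronal splicing factor. RBFOX3 held 2 members with folds of 3.35 and 2.40 with shZHX2 and 2.61 and 2.27 with shCtrl. None of 18 AP-1 and stress response factors, 30 nuclear receptors and corepressors, 14 interferon response genes, 19 chromatin architecture genes, 22 housekeeping genes, 14 blood markers or 12 stroma and endothelium markers had a member. Lists this short can hold none at the share over all protein-coding genes, so these zeros are not results about the lists. Over all 18 lists, 15 of 377 genes had a member (3.98%, against 2.29% of all protein-coding genes). A region of both hypoxia lists was near 348 of the 377, against 16663 of all 20050. The lists were chosen with earlier results of these data known, so these shares are a description only.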

How the data were processed

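The 9 ATAC-seq samples were reduced by the authors to 3 deposited lists of broad regions, 1 per group, each with 9 columns and no header. FastQC, Bowtie2, SAMtools, MACS2 and hg38 are named, without versions, per the submitters' processing notes. How 3 samples became 1 list, and whether reads were shifted for the transposase, was not given in the sources used here. The deposited values are a −log10 p, a −log10 q, a score and a fold enrichment (a ratio to local background) for each region, all computed by the authors. The fold and −log10 p served here to describe regions within a list, and the −log10 q and the score were not used.

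Merging, shares and Wilson intervals were computed with Python 3.11.15, numpy 2.4.6 and pandas 2.3.3, and the merging was tested on simulated lists. Gene ends and promoter windows came from RefSeq tables of GRCh38.p14, which shares hg38 coordinates. A region was assigned to the gene with the nearest end, within 50 kb. Named were genes with a member at a gene end, genes of 18 lists with a member, at most 10 genes with 2 members, the 10 strongest members by the lower of their 2 within-list percentiles and the 5 highest folds per list. The members and lists were chosen with earlier results of these data known. Start sites had been planned for the gene ends and were used only where the promoter table holds them. Motif and GC counts over whole regions were not run, because no genome was used here. Results of 1 gene list and 1 of the strongest members are not reported here.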

Additional observations from a re-analysis of the deposited data

How the results depend on the processing

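The count of 734 stayed at 734 when intervals up to 200 bp apart were joined, was 731 with 50% of the shorter interval shared, 769 with all lists at a −log10 p of at least 15 (479 of the 734 among them) and 721 on chromosomes 1 to 22. It was 479 with only the hypoxia lists held to 15, and 2742 with lists of equal length, of which 326 were among the 734; shorter normoxia and shCtrl lists are part of that setting's construction. The share at a gene end was 3.27% within 500 bp, 8.72% within 2000 bp and 12.5% with the ends of all genes. The share inside a coding gene lay between 50.6% and 53.3% under the member sets tried, which were chosen after seeing the data. At 20 kb, 308 genes and 12 of the 15 list genes kept a member, without P4HA1, ETS1 or TRPM8. No member has a normoxia region within 200 bp, so that setting could change nothing. No paired analysis was possible because each group has 1 list and the columns carry no replicate numbers, and for the same reason no sample could be left out. Depth is unknown, so a missing call is not shown to be closed chromatin.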

Other observations

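Some of the strongest regions lay at nuclear copies of mitochondrial genes, a comparison added after the strongest members had been seen. Within 1 kb of such a pseudogene lay 4 of 734 members (0.545%, Wilson 95% interval 0.212 to 1.39%), against 3 of 2005 regions called only in hypoxia with shZHX2 (0.150%), 2 of 4249 called only in hypoxia with shCtrl (0.0471%) and 23 of 57100 regions of all 3 lists (0.0403%). The region over MTRNR2L10, chrX:55181503-55181850, whose nearest protein-coding gene is VCF2, had a fold of 6.66 with shZHX2 and 5.82 with shCtrl. Those near MTRNR2L6 had 6.16 and 4.22 with shZHX2, and 4.79 and 4.05 with shCtrl, and that over MTCO2P22 had 5.15 with shZHX2 and 4.19 with shCtrl. The first called region of the mitochondrial genome had a −log10 p of 27062 in hypoxia with shZHX2, 25535 in hypoxia with shCtrl and 12282 in normoxia, with folds of 1.49, 1.49 and 1.5. These values are not normalised between lists, and the part of reads from mitochondrial DNA in the 4 regions was not tested.

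The densest group of members lay in the T cell receptor beta locus, chr7:142619335-142740893, where 5 of the 8 merged regions in 121.6 kb were members. They lay nearest to the V segments TRBV19, TRBV27 and TRBV29-1 and, in 2 cases, to MTRNR2L6, so the locus and the mitochondrial copies share regions. Beside P4HA1, at chr10:72834272-72982269, all 3 merged regions in 148.0 kb were members, the other 2 lying nearest to MCU, the mitochondrial calcium uniporter. Both places were chosen after their values were seen.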
